A study of Arabidopsis thaliana with 20 samples.

Results

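Inflorescence meristems (IMs) of *Arabidopsis thaliana* were collected in several harvests, and the comparison described here is that of harvest 2 with harvest 1. Its libraries were chosen by the harvest group in the sample labels, which gave 8 of the 20 libraries of the series. Harvest 2 held replicates 3 and 4 of *plt3 plt7* and of Col-0, and harvest 1 held replicates 1 and 2 of both genotypes. Harvest 3, with 1 IM library per genotype, was left out of the fit, and its values are given beside the others. The study sequenced RNA of IMs and shoot apical meristems to compare the double mutant *plt3 plt7*, which carries mutations in *PLETHORA 3* and *PLETHORA 7* and belongs to a set of CRISPR lines made in Col-0, with the wild type Col-0. It treated harvest week as a covariate, and harvest is the contrast here. All 8 libraries came from untreated plants sown on soil, 31 to 33 d post germination (dpg), and each pooled about 50 IMs from which flowers and primordia had been removed by hand until around 10 primordia remained. The study places its 5 replicates on separate days, at the same time of day. The interval between harvests 1 and 2 is not given in the sources used here, and neither is what differed between them besides date.

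The IM is the dome of dividing cells at the tip of the flowering shoot, where stem cells are maintained and flower primordia arise at its flanks. Gene activity in such tissue can vary with the stage of the plants, with how many older primordia remain after dissection, with the time of day set by the circadian clock, and with touch, wounding or contact with microbes. Pollen and the tapetum, the anther layer that feeds it, express many genes found in few other cells. Camalexin, indole glucosinolates and ER bodies (endoplasmic reticulum compartments filled with β-glucosidases) belong to the chemical defence of the mustard family.

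Promoter stretches are printed for 8 of the genes named below, each of which holds the motif marked in it. They are 5 that were lower together in harvest 2 and 3 picked because they hold a motif of the clock. Other named genes, such as *PEN3*, *RAB18* and *CYP83B1*, hold that motif too, and its share among all genes is given below. Upstream sequences were read from the RefSeq copy of TAIR10.1, the build of the authors' transcript set, and run 5′ to 3′ on the strand of the gene. Capitals mark the motif searched, in either orientation, and positions count from the annotated start of the gene. The first 5 genes were lower in harvest 2, and their capitals show the W-box core (TTGACC, or GGTCAA on the other strand), which WRKY transcription factors bind. Of the 12 leading lower genes described below only 6 held this core, and these 5 are among them.
*AT3G14040*, chr3:4650469-4650524, minus strand, positions -205 to -150: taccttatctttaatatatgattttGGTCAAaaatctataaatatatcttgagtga
*AT5G07410*, chr5:2345572-2345627, plus strand, positions -186 to -131: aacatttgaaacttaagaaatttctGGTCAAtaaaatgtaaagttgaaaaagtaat
*AT3G07820*, chr3:2498179-2498234, minus strand, positions -139 to -84: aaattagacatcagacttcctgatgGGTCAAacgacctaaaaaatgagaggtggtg
*BGAL11*, chr4:16672340-16672421, minus strand, positions -233 to -152: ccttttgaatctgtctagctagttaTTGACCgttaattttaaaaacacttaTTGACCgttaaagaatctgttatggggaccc
*VGDH1*, chr2:19326485-19326548, minus strand, positions -64 to -1: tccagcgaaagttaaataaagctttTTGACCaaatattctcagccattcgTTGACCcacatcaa
The last 3 genes carry the core of the evening element (AATATCT, or AGATATT on the other strand), the motif through which the morning factors of the clock repress evening genes. *CAT3* and *XPL1* were higher and *ELF4* was lower in harvest 2. The *XPL1* stretch also holds a W-box core, at position -141, which is not in capitals.
*CAT3*, chr1:7142738-7142926, plus strand, positions -234 to -46: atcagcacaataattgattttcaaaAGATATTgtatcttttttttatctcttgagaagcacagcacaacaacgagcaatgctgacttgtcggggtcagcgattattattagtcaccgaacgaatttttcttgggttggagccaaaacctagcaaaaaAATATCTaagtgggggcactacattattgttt
*ELF4*, chr2:16735162-16735203, minus strand, positions -250 to -209: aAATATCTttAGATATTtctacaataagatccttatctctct
*XPL1*, chr3:6154219-6154275, plus strand, positions -144 to -88: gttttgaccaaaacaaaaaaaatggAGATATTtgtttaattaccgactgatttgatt

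Depth and library quality overlapped between harvests. Library totals ran from 25.6 to 114.9 megacounts (M) in harvest 2 and from 24.8 to 42.1 M in harvest 1, and mean fragment lengths from 286.6 to 430.0 nt in harvest 2 and from 350.8 to 404.3 nt in harvest 1. None of 6 library properties passed a two-sided exact permutation test (adjusted *P* from 0.942 to 1.00, where 4 libraries against 4 can reach 0.0286 before adjustment). Nevertheless 2 libraries of harvest 2 stood apart: *plt3 plt7* replicate 3 was the deepest, at 114.9 M with 286.6-nt fragments, and Col-0 replicate 4 was the shallowest of its harvest, at 25.6 M with 430.0-nt fragments. On the first principal component of the 500 most variable genes, which held 56.2% of their variance, Col-0 replicate 4 lay at 14.61 and the other 7 libraries between -6.87 and 4.62. *PLT3*, annotated as *AIL6* (AT5G10510), had 986, 987, 998 and 860 normalised counts in the *plt3 plt7* libraries, against 1915, 1692, 1711 and 1497 in the Col-0 libraries, so the genotypes separated in both harvests. *PLT7*, annotated as *AIL7* (AT5G65510), overlapped between genotypes, with 617 to 786 in *plt3 plt7* and 734 to 975 in Col-0. The IM markers *STM* and *KNAT1* were present in every library (2377 to 3282 and 2142 to 2625 normalised counts), and the stem cell organiser gene *WUS* lay between 183 and 277. In these bulk samples fewer cells of a type and less RNA per cell cannot be told apart.

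Calls between harvests included genes of mature pollen and the pollen tube, of which 24 of 35 tested were lower in harvest 2 and 0 higher. They also included genes of camalexin and indole glucosinolate synthesis (7 of 14 higher), of ER bodies and jacalin lectins (7 of 11) and of salicylic acid defence (6 of 21), with 0 lower in each. With 1 library left out these counts ran from 13 to 25, 2 to 10, 3 to 8 and 2 to 10, in the order given. The first 3 of these lists were written with the calls known, and all 36 lists together held 29 of the 175 higher and 29 of the 176 lower calls. Of 19621 genes tested, 351 were called by DESeq2, at an adjusted *P* under 0.1 with the higher harvest exceeding the lower by more than 25% (1.79% of genes). Harvest 2 was higher for 175 of them (0.892%) and lower for 176 (0.897%). Every called gene had the same sign in both genotypes when these were estimated separately within the interaction model. Genes chosen by their harvest effect over both genotypes are likely to share a sign, so this is no separate evidence. Lower genes changed more, with a median log2 fold change of -1.87 against 0.74 for higher genes and 0.002 over all genes tested. More than 2-fold differences were found for 127 lower and 72 higher genes.

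The number of calls depended strongly on the test and on single libraries. edgeR called 0 genes at the same thresholds (lowest adjusted *P* = 0.164), limma voom also called 0, and edgeR with robust dispersions called 1, *XPL1*. At an unadjusted *P* under 0.05, DESeq2 counted 2735 genes (13.9%), edgeR 2742 (14.0%) and limma voom 2471, and all 351 DESeq2 calls were among those of edgeR. Leaving out 1 library at a time gave between 113 calls (without *plt3 plt7* replicate 4) and 692 (without Col-0 replicate 3). Without *plt3 plt7* replicate 3 there were 566, without *plt3 plt7* replicate 1 there were 191, and without *plt3 plt7* replicate 2 there were 216. Leaving out both libraries that stood apart gave 155 calls, of which 49 were among the 351.

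Separation of the normalised counts needs no model. All 4 harvest 2 libraries lay above all 4 harvest 1 libraries for 632 genes (3.22% of those tested) and below them for 668 (3.40%). Such a separation held for 60 of the 175 higher and 111 of the 176 lower calls. Col-0 replicate 4 was the highest harvest 2 library for 139 of the 175 higher genes. Among the 176 lower genes *plt3 plt7* replicate 3 was the highest harvest 2 library for 99. How often each library was the highest over all genes tested was not counted.

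**Figure D1:**
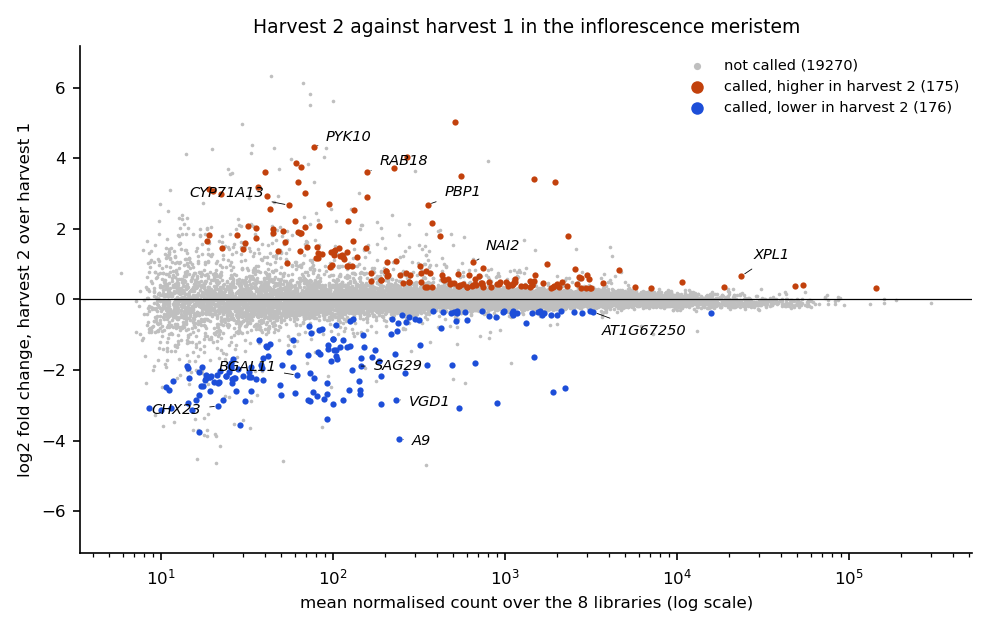
Log2 fold change of harvest 2 over harvest 1 (y axis) against the mean normalised count over 8 libraries (x axis, log scale) for 19621 genes. Orange and blue dots are the 175 higher and 176 lower genes called by DESeq2 and grey dots are genes not called. Lower calls gather between -1 and -4 at mean counts under about 1000, and higher calls above 1000 counts are mostly small.

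Among the leading higher genes, metabolism and the cell wall were represented at high abundance. *XPL1* (AT3G18000, chr3:6154363-6157552), which encodes a phosphoethanolamine N-methyltransferase of phosphocholine synthesis, had 34269 and 30204 (*plt3 plt7*) and 26329 and 25164 (Col-0) normalised counts in harvest 2, against 19318 and 17685 (*plt3 plt7*) and 17278 and 18662 (Col-0) in harvest 1. The harvests were far apart in both genotypes, and the log2 fold change was 0.66 ± 0.073 (SE from DESeq2, adjusted *P* = 4.12e-15, n = 4 libraries each). Within harvest 2 it was also called between genotypes (*plt3 plt7* over Col-0, log2 0.32 ± 0.087, DESeq2 adjusted *P* = 0.0457). Harvest 3 had 34617 in *plt3 plt7* and 29221 in Col-0, both above every harvest 1 library. The extensin gene *EXT3*, for a structural cell wall protein, had 52786 and 52719 (*plt3 plt7*) and 62369 and 51085 (Col-0) in harvest 2, against 39447 and 35578 (*plt3 plt7*) and 44047 and 48768 (Col-0) in harvest 1. Its groups did not overlap, but the change was small (log2 0.39 ± 0.076, DESeq2 adjusted *P* = 0.000216), and *EXT3* has an antisense partner from which its reads may not be separated. *PGIP2*, which encodes an inhibitor of fungal polygalacturonases, had 2664 and 2495 (*plt3 plt7*) and 3038 and 4973 (Col-0) in harvest 2, against 1515 and 1333 (*plt3 plt7*) and 1945 and 2374 (Col-0) in harvest 1 (log2 0.87 ± 0.13, DESeq2 adjusted *P* = 6.47e-08). Between genotypes *PGIP2* was called lower in *plt3 plt7* within harvest 2 (log2 -0.63 ± 0.17, DESeq2 adjusted *P* = 0.0458). The catalase gene *CAT3*, whose transcript follows the clock with an evening peak, averaged 61326 ± 8020 in harvest 2 and 46497 ± 3024 in harvest 1 (SD, n = 4 each, log2 0.40 ± 0.084, DESeq2 adjusted *P* = 0.000938). The formin gene *AT5G07770*, for an actin-binding protein, averaged 1061 ± 74.1 in harvest 2 and 791 ± 30.2 in harvest 1, without overlap.

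The other leading higher genes were *CYP71A13*, *NAI2* and *PBP1*, which are described with their lists below, *AT1G33790*, *MSRB9*, *AT3G22142* and *AT3G24880*. *MSRB9*, for a methionine sulfoxide reductase, averaged 951 ± 317 in harvest 2 and 537 ± 234 in harvest 1. Its groups overlapped, since Col-0 replicate 2 of harvest 1 had 804 and *plt3 plt7* replicate 3 of harvest 2 had 746. Within each genotype the harvests did not overlap. In harvest 1 *MSRB9* was called lower in *plt3 plt7* than in Col-0 (log2 -1.10 ± 0.222, DESeq2 adjusted *P* = 0.000608). *AT1G33790*, a jacalin lectin gene, differed by genotype more than by harvest, with 334 and 370 (*plt3 plt7*) and 949 and 1345 (Col-0) in harvest 2, against 191 and 210 (*plt3 plt7*) and 724 and 781 (Col-0) in harvest 1. Within each genotype its harvest 2 libraries were the higher ones. *AT3G24880*, a putative DNA-binding subunit with helicase/SANT association, shares 81.0% of its 31-base words with *AT3G24870*, so its value of 2166 ± 119 in harvest 2 against 1676 ± 137 in harvest 1 may belong to either copy. *AT3G22142*, a gene of the lipid-transfer protein superfamily with an antisense partner, averaged 12501 ± 1805 in harvest 2 and 8945 ± 734 in harvest 1.

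Several of the leading lower genes have products related to pectin. Of the 12 with the smallest adjusted *P*, *AT3G14040*, *AT5G07410* and *AT3G07820* are annotated as pectin lyase-like, and *VGDH1* and *AT5G50030* as members of the invertase and pectin methylesterase inhibitor superfamily. *AT3G14040* (chr3:4648236-4650319) had 70.2 and 16.9 (*plt3 plt7*) and 21.2 and 8.03 (Col-0) normalised counts in harvest 2, against 215 and 215 (*plt3 plt7*) and 207 and 159 (Col-0) in harvest 1. Every harvest 2 library was below every harvest 1 library, with *plt3 plt7* replicate 3 nearest to harvest 1 (log2 -2.86 ± 0.41, DESeq2 adjusted *P* = 1.96e-08). Its transcripts share 40.0% of their 31-base words with *AT3G07850*, so the reads may be split between both. *AT5G07410* repeated this order, with 58.2 and 11.2 (*plt3 plt7*) and 14.98 and 8.03 (Col-0) in harvest 2, against 162 and 154 (*plt3 plt7*) and 173 and 123 (Col-0) in harvest 1 (log2 -2.82 ± 0.45). *AT3G07820* had 45.5 and 11.2 (*plt3 plt7*) and 11.2 and 6.43 (Col-0) in harvest 2, against 94.3 and 185 (*plt3 plt7*) and 160 and 58.1 (Col-0) in harvest 1 (log2 -2.85 ± 0.498). In all 3 genes the harvest 3 library of *plt3 plt7* resembled harvest 1, at 215, 182 and 140, whereas that of Col-0 was low, at 44.3, 27.2 and 28.6.

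A glyoxal oxidase-related gene, *AT5G19580*, ranked first among the lower genes, with 129 and 63.0 (*plt3 plt7*) and 81.2 and 65.9 (Col-0) in harvest 2, against 227 and 331 (*plt3 plt7*) and 323 and 269 (Col-0) in harvest 1 (log2 -1.74 ± 0.248, DESeq2 adjusted *P* = 1.94e-08). The mucin-like gene *AT3G28830* averaged 23.4 ± 24.5 in harvest 2 and 177 ± 35.5 in harvest 1, and *AT5G50030* averaged 12.9 ± 9.06 in harvest 2 and 86.8 ± 44.2 in harvest 1. *AT1G67250*, for a proteasome maturation factor of the UMP1 type, differed from all of these in its small and even change. It had 2945 and 2857 (*plt3 plt7*) and 2847 and 2764 (Col-0) in harvest 2, against 3508 and 3730 (*plt3 plt7*) and 3691 and 3670 (Col-0) in harvest 1 (log2 -0.35 ± 0.052, DESeq2 adjusted *P* = 6.47e-08), and harvest 3 had 2639 in *plt3 plt7* and 2930 in Col-0.

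A second profile was seen in 3 of the 12 leading lower genes. *AT3G55570* had 13.1 and 12.4 (*plt3 plt7*) and 25.6 and 19.3 (Col-0) in harvest 2, against 155 and 149 (*plt3 plt7*) and 39.2 and 173 (Col-0) in harvest 1 (log2 -2.89 ± 0.453, DESeq2 adjusted *P* = 5.99e-07). *AT3G17675*, for a cupredoxin protein, had 20.7 and 25.9 (*plt3 plt7*) and 52.4 and 56.2 (Col-0) in harvest 2, against 249 and 188 (*plt3 plt7*) and 62.3 and 340 (Col-0) in harvest 1. *SAG29*, a sugar transporter gene named for its rise in senescing leaves, had 58.9 and 45.0 (*plt3 plt7*) and 63.0 and 83.6 (Col-0) in harvest 2, against 283 and 202 (*plt3 plt7*) and 102 and 328 (Col-0) in harvest 1. In each of these 3 genes Col-0 replicate 1 was the lowest harvest 1 library and close to harvest 2. Both harvest 3 libraries were low here, at 1.23, 40.5 and 62.6 in *plt3 plt7* and 15.73, 61.5 and 65.8 in Col-0. All 24 leading genes were called by DESeq2 in each of the 8 fits that left out 1 library. They had been chosen for the smallest adjusted *P* in the fit to all 8, which makes this likely beforehand. edgeR called none of them (lowest adjusted *P* = 0.164 over all genes).

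**Figure D2:**
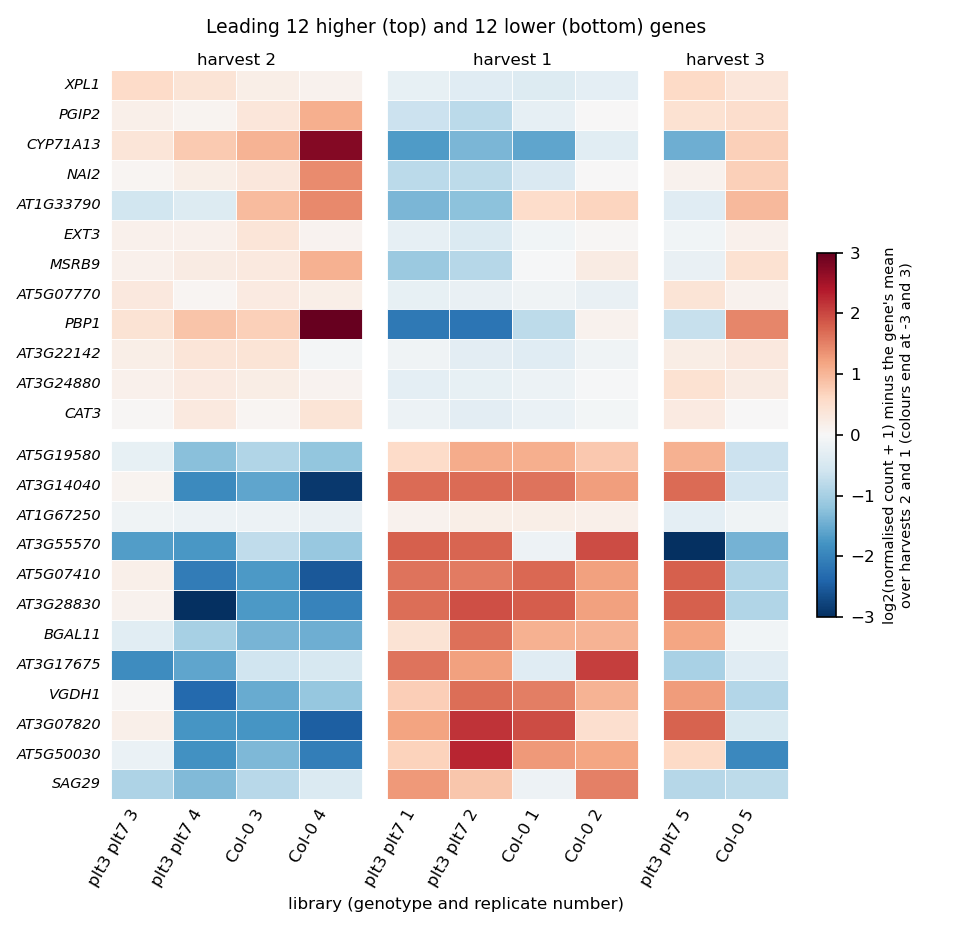
Level of the 24 leading genes by library, as log2(normalised count + 1) minus the mean of each gene over harvests 2 and 1 (colour scale from -3 to 3). Columns are the libraries of harvest 2, harvest 1 and harvest 3 with their replicate numbers. The pectin genes of *plt3 plt7* replicate 5 resemble harvest 1 (*AT3G14040*, 215) while those of Col-0 replicate 5 are low (44.3).

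The list of 56 genes of mature pollen and the pollen tube was assembled after such genes had been seen among the calls, so its counts describe and do not test it. Of its 35 genes with enough counts, 24 were lower in harvest 2 (0.897% of all genes tested were) and 0 were higher. In 22 of them all harvest 2 libraries lay below all harvest 1 libraries, against 3.40% of all genes tested. The median log2 fold change was -2.05, against 0.002 over all genes tested. *VGD1*, a pectin methylesterase gene needed for pollen tube growth, had 142 and 23.61 (*plt3 plt7*) and 40.6 and 33.7 (Col-0) in harvest 2, against 314 and 604 (*plt3 plt7*) and 423 and 279 (Col-0) in harvest 1 (log2 -2.84 ± 0.599, DESeq2 adjusted *P* = 0.000938). Its tandem neighbour *VGDH1* had 96.7 and 17.99 (*plt3 plt7*) and 32.5 and 41.8 (Col-0) in harvest 2, against 159 and 305 (*plt3 plt7*) and 276 and 197 (Col-0) in harvest 1, and 11.3% of its 31-base words occur in *VGD1*. The β-galactosidase gene *BGAL11* averaged 22.9 ± 9.40 in harvest 2 and 101 ± 34.9 in harvest 1. The polygalacturonase gene *PGA4* averaged 30.0 ± 22.6 in harvest 2 and 155 ± 74.8 in harvest 1, and *AGP40*, for an arabinogalactan protein, 42.9 ± 22.4 in harvest 2 and 125 ± 17.5 in harvest 1. *CHX23*, for a cation/H+ exchanger, was near the count minimum, with 1.12 to 11.6 in harvest 2 and 23.0 to 50.9 in harvest 1.

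These transcripts were scarce. The summed level of all 56 genes was 3793 to 4530 normalised counts in harvest 2 and 5173 to 7059 in harvest 1, and none of them was at 0 in all 8 libraries. *plt3 plt7* replicate 3 was the highest harvest 2 library for all 6 of the genes named above from this list. Leaving out 1 library left between 13 calls (without *plt3 plt7* replicate 2 or Col-0 replicate 1) and 25 (without *plt3 plt7* replicate 3), with medians from -2.68 to -1.82. A pollen tubulin gene that is also active elsewhere, *TUA1*, had 824 to 1075 in harvest 2 and 723 to 900 in harvest 1 and was not called. What set these levels in either harvest was not tested.

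Few anther genes were called. Of 19 tested genes of the anther and tapetum list, 2 were lower in harvest 2 (against 0.897% of all genes tested), 0 were higher and 15 had a log2 fold change below 0, with a median of -0.76. *A9* (AT5G07230), a tapetum gene of the lipid-transfer protein superfamily, had 8.73 and 8.99 (*plt3 plt7*) and 107 and 57.8 (Col-0) in harvest 2, against 572 and 448 (*plt3 plt7*) and 108 and 624 (Col-0) in harvest 1 (log2 -3.96 ± 0.91, DESeq2 adjusted *P* = 0.00345). Between genotypes *A9* was called lower in *plt3 plt7* within harvest 2 (log2 -3.23 ± 0.929, DESeq2 adjusted *P* = 0.0823). *AMS*, the tapetum transcription factor ABORTED MICROSPORES, had 128 and 215 (*plt3 plt7*) and 396 and 566 (Col-0) in harvest 2, against 1256 and 836 (*plt3 plt7*) and 398 and 1534 (Col-0) in harvest 1 (log2 -1.81 ± 0.578, DESeq2 adjusted *P* = 0.0693). Col-0 replicate 1 was the low harvest 1 library in both, as in *AT3G55570*, *AT3G17675* and *SAG29*. The summed level of the list overlapped between harvests, at 14008 to 24998 in harvest 2 and 16954 to 25372 in harvest 1, and 8 genes were called without Col-0 replicate 1, 6 without Col-0 replicate 4, and 0 without *plt3 plt7* replicate 4.

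Genes of indole metabolism were among the higher calls. Of 14 tested genes for camalexin and indole glucosinolates, 7 were higher (0.892% of all genes tested were), 0 were lower and all 14 lay above 0, with a median log2 fold change of 0.66, and this list, too, was written with the calls known. *CYP71A13*, which makes an intermediate of camalexin, had 42.6 and 56.2 (*plt3 plt7*) and 66.8 and 222 (Col-0) in harvest 2, against 9.17 and 11.9 (*plt3 plt7*) and 10.05 and 25.2 (Col-0) in harvest 1 (log2 2.67 ± 0.482, DESeq2 adjusted *P* = 3.37e-05). No library overlapped, although Col-0 replicate 4 was more than 3-fold above the others of its harvest, and *CYP71A13* has an antisense partner. *PAD3*, for the last enzyme of camalexin synthesis, had 57.5 and 48.3 (*plt3 plt7*) and 21.8 and 551 (Col-0) in harvest 2, against 15.72 and 11.9 (*plt3 plt7*) and 19.1 and 34.0 (Col-0) in harvest 1 (log2 2.70 ± 0.926, DESeq2 adjusted *P* = 0.0998). *CYP81F4*, which modifies indole glucosinolates, averaged 229 ± 171 in harvest 2 and 80.2 ± 24.8 in harvest 1. *CYP83B1*, an enzyme of the core indole glucosinolate pathway, averaged 3329 ± 874 in harvest 2 and 2195 ± 623 in harvest 1. The transport and activation genes *PEN3* and *PEN2* averaged 5934 ± 2439 and 799 ± 277 in harvest 2, against 3283 ± 912 and 530 ± 93.2 in harvest 1. *MYB51*, a regulator of the pathway, ranged from 31.2 to 333 in harvest 2 and from 3.39 to 49.3 in harvest 1. Without Col-0 replicate 4 the list held 3 calls and a median of 0.45. Without *plt3 plt7* replicate 4, 1 or 2 it held 2 calls each, without Col-0 replicate 1 it held 3, and without Col-0 replicate 3 it held 10.

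ER body genes gave a like picture. Of 11 tested genes for ER bodies and jacalin lectins, 7 were higher (against 0.892% of all genes tested), 0 were lower and all 11 lay above 0, with a median of 0.64, again on a list written with the calls known. *NAI2*, required to form ER bodies, had 599 and 668 (*plt3 plt7*) and 736 and 1541 (Col-0) in harvest 2, against 331 and 334 (*plt3 plt7*) and 419 and 584 (Col-0) in harvest 1 (log2 1.05 ± 0.197, DESeq2 adjusted *P* = 7.61e-05). *PBP1*, for a jacalin-related lectin that binds the ER body β-glucosidase PYK10, had 259 and 344 (*plt3 plt7*) and 310 and 1518 (Col-0) in harvest 2, against 41.9 and 40.7 (*plt3 plt7*) and 111 and 209 (Col-0) in harvest 1 (log2 2.69 ± 0.542, DESeq2 adjusted *P* = 0.000438). The gene *PYK10* itself had 69.5 and 101 (*plt3 plt7*) and 27.5 and 379 (Col-0) in harvest 2, against 3.93 and 0 (*plt3 plt7*) and 9.05 and 26.3 (Col-0) in harvest 1. All 3 genes were separated between harvests, but *NAI2* by only 599 against 584 and *PYK10* by only 27.5 against 26.3. *BGLU18*, a β-glucosidase gene of inducible ER bodies, was the most abundant, averaging 158335 ± 16883 in harvest 2 and 126523 ± 15488 in harvest 1 (log2 0.32 ± 0.094, DESeq2 adjusted *P* = 0.0375). *MEB1*, for an ER body membrane protein, averaged 1272 ± 156 in harvest 2 and 941 ± 129 in harvest 1. *NSP1*, a nitrile specifier gene that directs glucosinolate breakdown and shares 36.9% of its words with a neighbour, averaged 3281 ± 1264 in harvest 2 and 2077 ± 527 in harvest 1. The list held 3 calls without *plt3 plt7* replicate 1 or Col-0 replicate 1, 4 without Col-0 replicate 4, and 8 without *plt3 plt7* replicate 2, Col-0 replicate 3 or Col-0 replicate 2.

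Some genes of salicylic acid defence were called. Of 21 tested 6 were higher (against 0.892% of all genes tested) and 0 were lower, with a median of 0.55. *CBP60G*, a calmodulin-binding transcription factor gene upstream of salicylic acid synthesis, had 59.7 and 120 (*plt3 plt7*) and 62.4 and 292 (Col-0) in harvest 2, against 18.3 and 18.7 (*plt3 plt7*) and 27.1 and 66.8 (Col-0) in harvest 1 (log2 2.08 ± 0.472, DESeq2 adjusted *P* = 0.00294). Its relative *SARD1* averaged 303 ± 99.3 in harvest 2 and 188 ± 36.5 in harvest 1. *EDS16*, the isochorismate synthase gene, averaged 225 ± 21.97 in harvest 2 and 154 ± 25.5 in harvest 1, and *PAD4*, an immune signalling gene, 529 ± 93.4 in harvest 2 and 359 ± 61.2 in harvest 1, neither with overlap. *PCC1* averaged 162 ± 62.4 in harvest 2 and 84.3 ± 14.1 in harvest 1, and *PAD3* was counted here as well. The regulators *NPR1*, *EDS1* and *WRKY70* were not called. The marker of the response, *PR1*, was not called either (DESeq2 adjusted *P* = 0.104), with 65.1 and 13.5 (*plt3 plt7*) and 3.12 and 138 (Col-0) in harvest 2, against 0 and 0 (*plt3 plt7*) and 1.00 and 15.3 (Col-0) in harvest 1. Without *plt3 plt7* replicate 3 or 4, Col-0 replicate 4 or any 1 of 3 harvest 1 libraries the list held 2 calls, without Col-0 replicate 3 it held 10 and without Col-0 replicate 2 it held 8. Its median was 0.15 without Col-0 replicate 4.

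The list of touch, wounding and early stress genes had its highest median level in Col-0 replicate 4. Of 25 tested, 5 were higher (against 0.892% of all genes tested), 0 were lower and 24 lay above 0, with a median of 0.69. *ERF11*, an ethylene response factor gene, had 36.4 and 45.0 (*plt3 plt7*) and 38.7 and 162 (Col-0) in harvest 2, against 11.8 and 6.78 (*plt3 plt7*) and 22.1 and 37.3 (Col-0) in harvest 1 (log2 1.90 ± 0.492, DESeq2 adjusted *P* = 0.0137). The immune kinase gene *MPK3* averaged 1380 ± 434 in harvest 2 and 912 ± 108 in harvest 1, without overlap. *RAV1*, *WRKY46* and *ERF104*, for transcription factors, averaged 423 ± 220, 279 ± 160 and 141 ± 74.0 in harvest 2, against 218 ± 78.1, 131 ± 22.2 and 62.0 ± 45.9 in harvest 1, all with overlap. *TCH3*, the touch-induced calmodulin-like gene, was not called, at 742 and 1636 (*plt3 plt7*) and 828 and 4658 (Col-0) in harvest 2, against 482 and 290 (*plt3 plt7*) and 402 and 1207 (Col-0) in harvest 1. The list held 0 calls without *plt3 plt7* replicate 4, 1 without Col-0 replicate 4, 2 without Col-0 replicate 1 and 3 without *plt3 plt7* replicate 1. It held 8 without Col-0 replicate 2, 9 without *plt3 plt7* replicate 3 and 16 without Col-0 replicate 3. With all libraries 16 genes had an unadjusted *P* under 0.05 in DESeq2 and in edgeR. Jasmonate genes gave 1 call of 25 (against 0.892% of all genes tested called higher), with a median of 0.48 and 24 values above 0. The call was *JAZ6*, at 2317 ± 414 in harvest 2 and 1792 ± 305 in harvest 1.

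**Figure D3:**
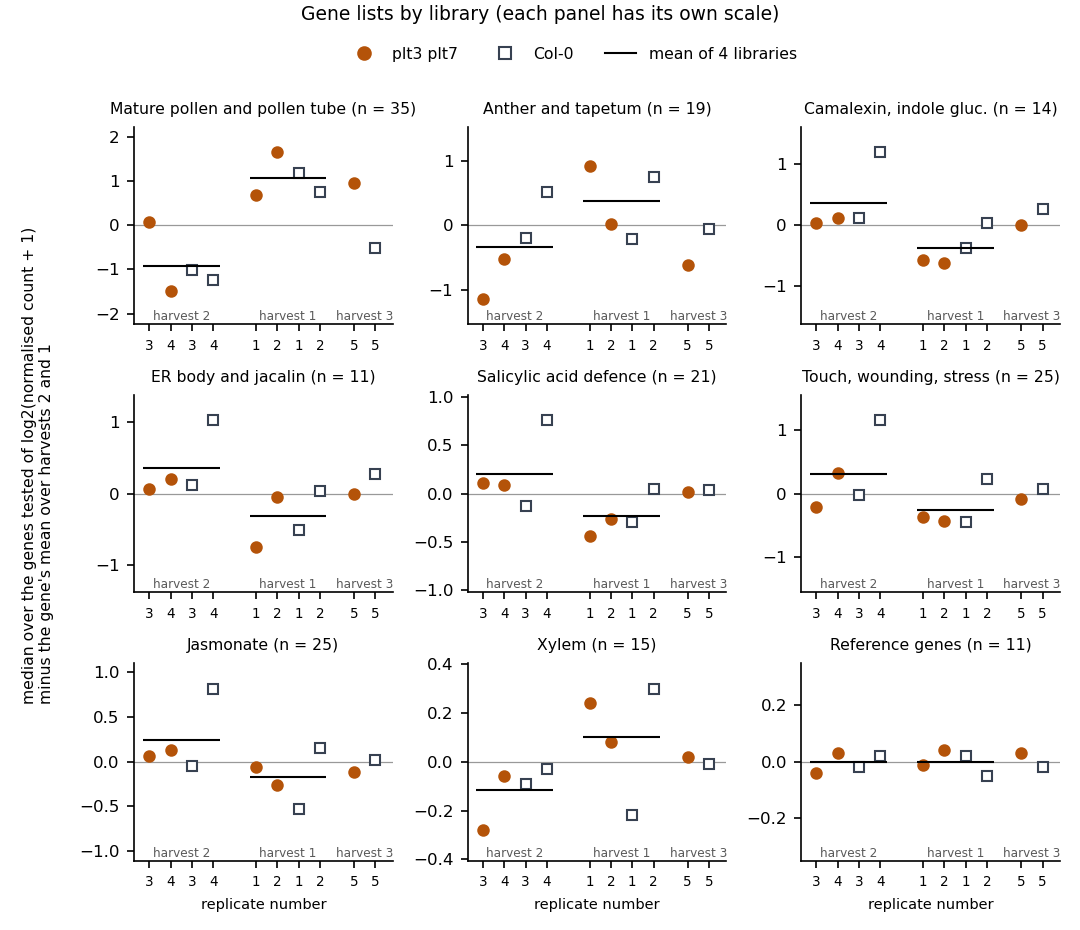
Median over the tested genes of each list of log2(normalised count + 1), less the mean of the gene over harvests 2 and 1, for each library (replicate number on the x axis). Circles are *plt3 plt7*, squares are Col-0 and lines are means of 4 libraries. Col-0 replicate 4 is the highest library in the camalexin, ER body, salicylic acid, touch and jasmonate panels (1.2, 1.03, 0.76, 1.16 and 0.82), and pollen genes of *plt3 plt7* replicate 3 (0.07) lie between both harvests.

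Single genes of other responses were called. *RAB18*, a dehydrin gene induced by abscisic acid (ABA), had 24.4 and 572 (*plt3 plt7*) and 34.3 and 533 (Col-0) in harvest 2, against 30.1 and 17.0 (*plt3 plt7*) and 10.05 and 37.3 (Col-0) in harvest 1 (log2 3.62 ± 1.13, DESeq2 adjusted *P* = 0.0587). Both replicate 4 libraries were high and the replicate 3 libraries lay within harvest 1, so this gene split harvest 2 rather than the harvests. It was the 1 call among 25 genes of cold, drought and ABA response (against 0.892% of all genes tested called higher, list median 0.25). Of 17 low-oxygen genes 2 were higher (against 0.892% of all genes tested, list median 0.23), namely *HB1*, for a haemoglobin, with 88.2 ± 58.7 in harvest 2 and 39.4 ± 39.0 in harvest 1, and *PCO2* (AT5G39890), for a plant cysteine oxidase, with 576 ± 205 in harvest 2 and 435 ± 210 in harvest 1. This list held 0 calls without *plt3 plt7* replicate 4, *plt3 plt7* replicate 1 or Col-0 replicate 1, 1 without *plt3 plt7* replicate 3 or 2, 3 without Col-0 replicate 3 and 4 without Col-0 replicate 2. The harvest groups of both genes overlapped, and *PCO2* was lower in *plt3 plt7* than in Col-0 within harvest 2 (log2 -0.91 ± 0.184) and within harvest 1 (log2 -1.24 ± 0.195). *HB1* was called lower in *plt3 plt7* within harvest 1 (log2 -2.515 ± 0.628, DESeq2 adjusted *P* = 0.0213). Of 22 flowering time genes only *TFL1*, which keeps the IM indeterminate, was called, lower in harvest 2 (against 0.897% of all genes tested). It had 54.5 ± 14.9 in harvest 2 and 89.9 ± 14.8 in harvest 1 (DESeq2 adjusted *P* = 0.0997), and its call was lost in each of the 8 fits without 1 library. *ELIP1*, an early light-induced gene of chloroplasts whose values are given with the interaction below, was the 1 call among 25 genes of flavonoid synthesis and high light (against 0.897% of all genes tested called lower). Of these 25 genes 22 lay below 0 (median -0.18). *ELIP1* was lower in harvest 2 (log2 -0.62 ± 0.200, DESeq2 adjusted *P* = 0.0721), with a log2 of -1.21 ± 0.172 in *plt3 plt7* and -0.029 ± 0.177 in Col-0.

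Most clock genes were not called. Of 20 core genes 1 was called lower (against 0.897% of all genes tested), *ELF4*, an evening gene of the clock. It had 2896 and 2345 (*plt3 plt7*) and 2577 and 1889 (Col-0) in harvest 2, against 3083 and 2873 (*plt3 plt7*) and 3286 and 3344 (Col-0) in harvest 1 (log2 -0.37 ± 0.114, DESeq2 adjusted *P* = 0.05). The highest harvest 2 library and the lowest harvest 1 library overlapped slightly, and the call was kept in 4 of the 8 fits without 1 library. The other 19 genes were not called, among them *CCA1* (log2 0.36 ± 0.277), *LHY* (0.04 ± 0.172), *TOC1* (0.12 ± 0.066) and *GI* (0.16 ± 0.076), and the list median was 0.14. Of the 20, 18 lay above 0 and 8 had an unadjusted *P* under 0.05 in DESeq2 and 6 in edgeR (13.9% and 14.0% of all genes tested). Without Col-0 replicate 2, 4 core genes were higher and 0 lower. Of 18 clock-controlled genes *CAT3* was the 1 call (against 0.892% of all genes tested called higher). Of 36 lists, 23 held 0 DESeq2 calls among 410 tested genes, of which 46 had an unadjusted *P* under 0.05 in DESeq2 and 37 in edgeR, which also called 0. These included meristem and boundary genes (14 tested, median 0.01), floral meristem and organ identity (25, 0.02), auxin (30, 0.00), cytokinin (28, -0.06), DNA replication (26, 0.00), mitosis (32, -0.01), heat shock (17, 0.08) and reference genes (11, -0.01). Xylem genes held 0 calls but 14 of 15 lay below 0, with a median of -0.22 and summed levels of 3637 to 3883 in harvest 2 and 3885 to 4471 in harvest 1.

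Calls were also counted in families taken from annotated products, against 0.892% higher and 0.897% lower of all genes tested. Of 118 genes with a pectin-related product, 18 were lower (15.3%) and 1 was higher (0.847%) in harvest 2, and 38 of the 176 lower genes were on the pollen list or had such a product. Of the 19621 genes tested, 35 were on the pollen list and 118 had such a product. The pollen list was written with the calls known, so the count of 38 describes and does not test. Among 127 cytochrome P450 genes 8 were higher (6.30%) and 2 lower (1.57%), and among 48 lipid-transfer genes 2 were higher (4.17%) and 8 lower (16.7%). *CYP71A13*, *CYP81F4*, *CYP83B1* and *PAD3*, described above, are among these P450 calls. Leaving out 1 library gave 2 to 12 higher P450 calls, 1 to 10 lower lipid-transfer calls and 10 to 20 lower pectin calls. The fewest P450 and lipid-transfer calls were those without *plt3 plt7* replicate 4. Among 1097 kinase genes 16 were higher (1.46%) and 6 lower (0.547%), shares near those of all genes. Of 323 ribosomal protein genes 1 was called, lower in harvest 2, and without *plt3 plt7* replicate 3 there were 24. Of them 289 had a log2 fold change below 0, with a median of -0.10. Their summed level overlapped between harvests, at 3879423 to 4272345 normalised counts in harvest 2 and 4092840 to 4627914 in harvest 1.

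The motifs printed at the outset were counted in the promoters of all genes, from 250 bases before to 50 after the start and on both strands. The W-box core TTGACC occurred in 21.6% of 176 lower and 17.9% of 173 higher genes, against 14.0% of 19510 tested genes, and in 6 of the 12 leading lower and 2 of the 12 leading higher genes. The evening element core AATATCT was in 10.8% of lower, 15% of higher and 11.7% of all genes. The G-box CACGTG was in 4.55% of lower, 12.1% of higher and 8.74% of all genes, and the dehydration-responsive element core CCGAC in 7.39%, 12.1% and 16.2% of the same sets. The telo box core AAACCCT was in 9.09% of lower, 4.62% of higher and 9.57% of all genes, and the site II element TGGGCC in 9.66%, 9.25% and 19.2%. In the promoters of the named genes no match overlapped a match of another motif. These shares are descriptions without a test.

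**Figure D4:**
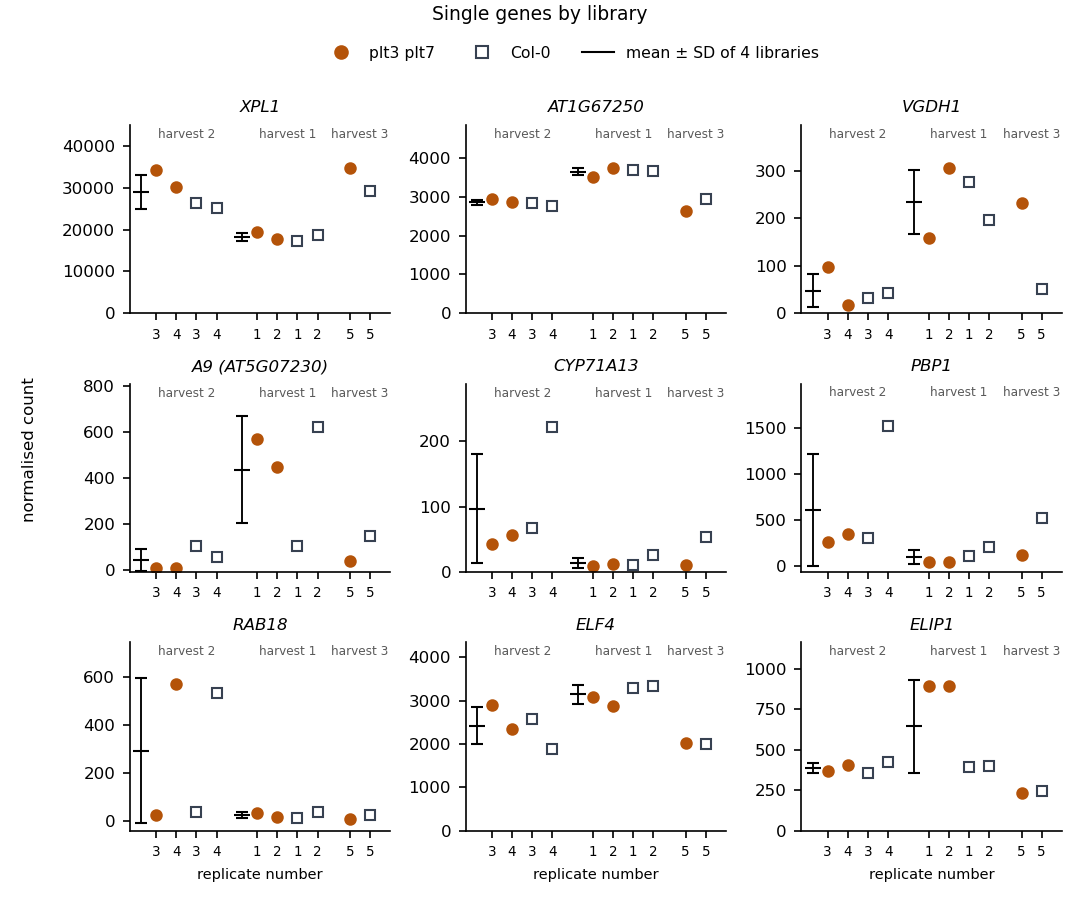
Normalised counts of 9 genes by library (replicate number on the x axis, harvest 2, harvest 1 and harvest 3 from left to right). Circles are *plt3 plt7*, squares are Col-0, and bars are mean ± SD of 4 libraries. *XPL1* and *AT1G67250* do not overlap between harvests, *CYP71A13* and *PBP1* are highest in Col-0 replicate 4 (222 and 1518), and *RAB18* is high in both replicate 4 libraries (572 and 533).

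Whether the response to genotype itself varied with harvest was asked with an interaction term. DESeq2 called 2 of 19621 genes (0.0102%), against 408 with an unadjusted *P* under 0.05, and edgeR called 0, against 462. *ELIP1* had 370 and 408 normalised counts in *plt3 plt7* and 356 and 424 in Col-0 in harvest 2, and 896 and 892 in *plt3 plt7* and 394 and 397 in Col-0 in harvest 1. *plt3 plt7* thus exceeded Col-0 in harvest 1 and matched its range in harvest 2 (interaction log2 -1.18 ± 0.247, DESeq2 adjusted *P* = 0.0357). In harvest 3 *ELIP1* was lower in both, at 236 in *plt3 plt7* and 246 in Col-0. *EXO70H2*, for an exocyst subunit, had 19.6 and 40.5 in *plt3 plt7* and 6.87 and 0 in Col-0 in harvest 2, and 0 and 0 in *plt3 plt7* and 41.2 and 15.3 in Col-0 in harvest 1 (DESeq2 adjusted *P* = 0.0557). Its values rest on few counts and it has an antisense partner. The count of interaction calls ran from 0 without *plt3 plt7* replicate 1, 2 or 3 to 214 without *plt3 plt7* replicate 4, with 69 without Col-0 replicate 2, 14 without Col-0 replicate 4 and 13 without Col-0 replicate 3, fits in which a lone library is taken to vary like the others.

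Within harvest 2, *plt3 plt7* differed from Col-0 for 129 genes (0.657%), 31 higher and 98 lower in *plt3 plt7*. Within harvest 1 it differed for 93 genes (0.474%), 34 higher and 59 lower. In both harvests 41 genes were called, all in the same direction, which was 31.8% of the harvest 2 calls and 44.1% of those of harvest 1. *AT1G33790* was one of them, with a log2 fold change of *plt3 plt7* over Col-0 of -1.70 ± 0.188 in harvest 2 and -1.91 ± 0.203 in harvest 1. Of the 129 genes called in harvest 2, 109 had the same sign in harvest 1, and of the 93 called in harvest 1, 90 had it in harvest 2. The share of all genes tested with the same sign in both harvests was not counted, so these counts do not measure agreement.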

How the data were processed

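RNA of dissected IMs was sequenced by the study from strand-specific libraries. The authors trimmed reads with fastp 0.23.4 and pseudo-aligned them to TAIR10.1 transcripts with kallisto 0.46.1, and they deposited estimated counts for each transcript, without normalisation and with fractions where reads fit several transcripts. The deposited tables also give TPM, scaled for transcript length and library total by the authors, and transcript lengths. No strand option for kallisto is stated in the sources used here, so genes with an antisense partner (65 of the 351 calls) are uncertain, and reads carried no molecular identifiers.

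Estimated counts of 48266 transcripts were added up over 27562 genes and rounded. Genes reaching 10 counts in 4 or more of these 8 libraries were fitted with DESeq2 1.42.0 (R 4.3.3, Wald test) with genotype as covariate, and called at a Benjamini-Hochberg adjusted *P* under 0.1 with the higher harvest exceeding the lower by more than 25% (log2 of 0.32). Adjusted *P* values cover all 19621 genes. Log2 fold changes are harvest 2 over harvest 1 with their SE, and normalised counts were scaled by DESeq2 size factors. Totals of 24.8 to 114.9 M make counting error small for abundant genes and large near 10 counts, and SDs include it. *P* values measure the spread between these libraries, each a pool of plants. They do not measure the spread between harvests, because no harvest was repeated. The tests took all libraries as independent, although same-numbered libraries deviated together in harvest 2 (r = 0.413 over 17529 genes). Whether such libraries shared a day is not stated in the sources used here. The interaction and the genotype contrasts used the same thresholds in a fit with an interaction term. Library properties were compared by two-sided exact permutation tests, adjusted over 6 properties. TPM weighted transcript lengths in 1 alternative, and fragment lengths were read from deposited effective lengths.

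Genes named are *PLT3* and *PLT7*, 12 higher and 12 lower calls of lowest adjusted *P*, up to 6 called genes of each list, and up to 6 interaction calls, while *PR1*, *TCH3*, *TUA1* and other genes not called are given as list members. Libraries, lists and tests were chosen with earlier results of these data known, and the pollen, camalexin and ER body lists were added after the calls had been seen. Alternatives were edgeR 4.0.16 (quasi-likelihood), limma 3.58.1 (voom), TMM factors, other thresholds and filters, thinning to the shallowest library, a transcript length offset, blocks and left-out libraries. Tested on simulated harvest differences in 19400 genes, DESeq2 recovered 95% of 2-fold and 80% of 1.5-fold changes with 33 false calls, and edgeR 94% and 69% with 8. The simulated libraries were drawn independently with the DESeq2 dispersions, without an outlying library or an effect shared by same-numbered libraries. They check that the steps run and do not measure the reliability of the calls made here. Replicates of a group differed by 8.92 to 26.4 times the sampling variance, so all were counted as separate samples. Python 3.11.15 with pandas 2.3.3, numpy 2.4.6, scipy 1.17.1 and matplotlib 3.10.9 was used.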

Additional observations from a re-analysis of the deposited data

Results flagged for a closer look

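In groups of 4 libraries, a library was picked out where its gap to the nearest other took up more of the range than Dixon's 95% critical value allows, which chance gives in about 1 of 20 groups. This met 14 of 140 groups, 5 of them through Col-0 replicate 4 and 3 each through *plt3 plt7* replicate 3 and Col-0 replicate 2. Within harvest 2, Col-0 replicate 4 was far above the other libraries in *CYP71A13* (222), *NAI2* (1541), *MSRB9* (1424), *PBP1* (1518) and the summed level of the camalexin and indole glucosinolate list (30561, against 16208 to 18073 in the other libraries). *plt3 plt7* replicate 3 was far above them in *AT5G07410* (58.2), *AT3G07820* (45.5) and the summed flowering time list (50703, against 43414 to 43973), and Col-0 replicate 3 in *EXT3* (62369). Within harvest 1, Col-0 replicate 2 was the highest for *CYP71A13* (25.2) and the summed touch and wounding list (11046, against 8062 to 8368) and the lowest for *AT3G14040* (159). Col-0 replicate 1 was the highest for *AT5G07770* (835), and *plt3 plt7* replicate 2 had the longest fragments (404 nt, against 351 to 358 nt). The effect of harvest differed between genotypes for *ELIP1* (DESeq2 interaction, adjusted *P* = 0.0357, log2 -1.18) and for *EXO70H2* (DESeq2 adjusted *P* = 0.0557, with 2 libraries at 0 in *plt3 plt7* of harvest 1).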

How the results depend on the processing

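Of 57 named genes called between harvests, 29 kept their DESeq2 call in all 8 fits without 1 library and 0 changed direction under any alternative. Each omission lost some of these calls, namely *plt3 plt7* replicate 4 (24), *plt3 plt7* replicate 1 (20), Col-0 replicate 1 (19), Col-0 replicate 4 (18), *plt3 plt7* replicate 2 (16), *plt3 plt7* replicate 3 (10), Col-0 replicate 2 (4) and Col-0 replicate 3 (2). Against 351 calls between harvests, an adjusted *P* under 0.05 gave 223, no fold minimum 697, Col-0 alone 135, *plt3 plt7* alone 307, no genotype covariate 237 and 1-library omissions 113 to 692. Thinning gave 272, TMM factors 350 and a transcript length offset 369. Chosen after seeing the data, edgeR with robust dispersions gave 1, leaving out a replicate number in both genotypes gave 124 (number 1), 159 (number 2), 1104 (number 3) and 118 (number 4), and leaving out Col-0 replicate 4 and *plt3 plt7* replicate 3 together gave 155. edgeR gave 0, with 2742 genes at an unadjusted *P* under 0.05, and the cause of its difference from DESeq2 was not tested.

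Same-numbered libraries deviated together in harvest 2 (r = 0.413 over 17529 genes) but not in harvest 1 (r = -0.099), so the numbers were not taken as pairs. limma voom called 0 without a replicate block (2471 at an unadjusted *P* under 0.05), 0 with it (2175) and 0 where a length trend was removed together with the replicate block (1420). Summing same-numbered libraries gave 155 DESeq2 calls (45 higher, 110 lower).

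For the 2 interaction calls, edgeR gave 0 (462 at an unadjusted *P* under 0.05), no low-count filter 5, an adjusted *P* under 0.05 gave 1, a fixed replicate block 18 and 1-library omissions 0 to 214. Within harvest 2 and harvest 1 edgeR called 9 and 10 genes between genotypes against 129 and 93 with DESeq2, and separate DESeq2 fits gave 123 and 165. Genes near 10 counts carry the largest counting error.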

Other observations

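Harvest 3, with 1 library per genotype, was compared with the genes called between harvests 2 and 1 by asking which mean each library was nearer to on the log2(normalised count + 1) scale. For the 175 higher genes *plt3 plt7* replicate 5 was nearer to harvest 2 in 105 and Col-0 replicate 5 in 138. For the 176 lower genes *plt3 plt7* replicate 5 was nearer to harvest 2 in 91 and Col-0 replicate 5 in 145. The summed level of the pollen list was 6398 in *plt3 plt7* replicate 5 and 4180 in Col-0 replicate 5, the first within harvest 1 (5173 to 7059) and the second within harvest 2 (3793 to 4530). *A9* had 41.7 in *plt3 plt7* replicate 5 and 150 in Col-0 replicate 5, of which the first lay within harvest 2 (8.73 to 107) and the second between the lowest harvest 1 library (108) and the others of harvest 1 (448 to 624).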
